A study of Mus musculus with 2 samples.

Results

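The nuclear factor I genes Nfia, Nfib, Nfic and Nfix were examined for regions enriched for Brg1, the ATPase of the BAF chromatin remodelling complex, in mouse medulloblastoma. The 4 genes were taken by symbol from RefSeq on GRCm38.p6 (mm10), out of 21631 protein-coding genes. Each was searched for islands, the enriched regions that the authors called with SICER, in the gene or within 5 kb of it, and for distal islands beyond that and up to 100 kb away. The search gave 32 islands in or near the 4 genes and 10 distal ones, of 5727 islands in all.

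The tumours arose spontaneously in mice with the genotype CAG-CreER, Rosa26-SmoM2, in which a Cre recombinase under the broadly active CAG promoter turns on SmoM2, an activated form of the Hedgehog transducer Smoothened. Tumour cells were dissociated, crosslinked and sonicated, and chromatin was precipitated with the J1 antibody against Brg1 and its paralogue Brm, so an island can hold either ATPase. There was 1 such ChIP library and 1 input library without antibody, and the input is not analysed here. The number of animals or tumours behind a library is not given in the sources used here, and with a single ChIP library no difference below has a replicate check.

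Nuclear factor I (NFI) proteins are transcription factors that bind DNA as dimers through a conserved N-terminal domain. Their preferred site is a palindrome of TTGGC and its reverse complement GCCAA with 5 bases between. In the developing cerebellum NFI proteins are known for their part in the maturation of granule neurons, the lineage from which Shh-type medulloblastoma arises, and elsewhere in the brain Nfia, Nfib and Nfix are known for the switch from neural progenitors to glia and neurons. Nfic is known above all for its part in tooth root formation. These are background and were not measured here.

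The whole list covered 14.2 Mb and held 472238 reads, with a median of 68 reads (interquartile range 56 to 86) and a median width of 2200 bp per island. The number of reads per island is the authors' own value, is not scaled for depth or width, and its exact Poisson 95% intervals cover counting error only. The total depth of the library is unknown, and the absence of an island does not show the absence of Brg1. Of 7 genes listed as markers of granule neuron progenitors and Shh-type tumours, all 7 had an island in the gene or within 5 kb (Atoh1, Barhl1, Zic1, Pax6, Meis1, Gli1 and Neurod1). So had 3 of 8 markers of other cells (Gfap, Mbp and Cdh5, but not Aqp4, Mog, Aif1, Csf1r or Pecam1), where 16.9% of all protein-coding genes had one. Both marker lists were chosen with earlier results of these data known and were not matched for gene length, so these shares test nothing. An island near a marker does not measure the make-up of the sample.

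Islands lay over the start listed for Nfia, over starts of Nfix and over an lncRNA start at the end of Nfib. The start listed for Nfic fell between islands, and none was listed for Nfib itself. Sequences just before annotated starts are therefore shown. Each is the 250 bases before a start in RefSeq on GRCm38.p6, read 5′ to 3′ along the strand of the gene, with capitals for the single NFI sequence TTGGC or its reverse complement GCCAA and for the E-box CAGCTG, a sequence of the kind bound by bHLH factors. The first pair lay under the same island, at the listed start of Nfia and that of the lncRNA E130114P18Rik, which runs the other way.
Nfia, chr4:97581693-97581942, plus strand: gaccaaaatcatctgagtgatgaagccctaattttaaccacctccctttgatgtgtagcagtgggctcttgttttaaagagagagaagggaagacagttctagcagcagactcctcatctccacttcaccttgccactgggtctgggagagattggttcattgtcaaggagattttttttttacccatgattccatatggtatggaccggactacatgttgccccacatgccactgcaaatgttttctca
E130114P18Rik, chr4:97584592-97584841, minus strand: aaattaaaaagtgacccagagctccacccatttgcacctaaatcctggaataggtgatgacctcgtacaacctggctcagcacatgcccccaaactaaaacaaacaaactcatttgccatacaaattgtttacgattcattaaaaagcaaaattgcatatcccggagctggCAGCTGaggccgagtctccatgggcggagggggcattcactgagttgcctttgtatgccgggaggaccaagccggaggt
The next belongs to Gm19417, an lncRNA inside Nfia whose start lay under an island in the middle of the gene.
Gm19417, chr4:97869010-97869259, minus strand: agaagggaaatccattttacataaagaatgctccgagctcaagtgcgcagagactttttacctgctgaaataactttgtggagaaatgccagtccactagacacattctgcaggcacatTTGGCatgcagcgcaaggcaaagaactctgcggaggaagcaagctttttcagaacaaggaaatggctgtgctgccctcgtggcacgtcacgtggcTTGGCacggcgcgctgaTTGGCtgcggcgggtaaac
At the higher-coordinate end of Nfib the start under the island is that of the lncRNA Gm11266. Whether that island also covers a start of Nfib could not be examined, because none was listed.
Gm11266, chr4:82507739-82507988, plus strand: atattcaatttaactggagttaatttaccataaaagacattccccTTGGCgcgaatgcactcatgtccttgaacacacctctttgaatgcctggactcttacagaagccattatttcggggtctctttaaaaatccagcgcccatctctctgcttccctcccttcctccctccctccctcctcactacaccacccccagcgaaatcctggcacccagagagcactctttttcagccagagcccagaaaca
Nfix has several starts, of which the outermost and the one holding both motifs are shown.
Nfix outermost start, chr8:84780083-84780332, minus strand: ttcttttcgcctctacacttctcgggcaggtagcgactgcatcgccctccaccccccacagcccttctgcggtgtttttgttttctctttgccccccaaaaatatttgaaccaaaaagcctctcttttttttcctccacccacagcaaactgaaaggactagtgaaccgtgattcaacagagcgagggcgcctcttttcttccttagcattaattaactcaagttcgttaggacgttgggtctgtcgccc
Nfix start with both motifs, chr8:84775829-84776078, minus strand: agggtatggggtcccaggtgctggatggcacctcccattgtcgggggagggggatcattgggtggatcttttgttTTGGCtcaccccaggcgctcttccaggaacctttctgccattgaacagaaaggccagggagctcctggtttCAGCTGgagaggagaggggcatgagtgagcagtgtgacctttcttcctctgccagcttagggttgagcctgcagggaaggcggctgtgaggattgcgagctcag
The sequence before the start of Nfic lay in the gap between islands.
Nfic, chr10:81427174-81427423, minus strand: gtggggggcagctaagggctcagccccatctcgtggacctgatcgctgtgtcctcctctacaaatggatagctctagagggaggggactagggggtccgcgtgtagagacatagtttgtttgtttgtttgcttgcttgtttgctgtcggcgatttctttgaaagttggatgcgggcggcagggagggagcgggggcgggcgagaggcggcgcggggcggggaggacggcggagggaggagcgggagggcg

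Among these, the start of Gm19417 held 3 single NFI sequences, a number reached in 2.68% of 32851 start sequences in the table. At least 1 was found in 41.5% of start sequences, among them those of Gm11266 and of the Nfix start with both motifs. The E-box, in 13.0% of all, was found before E130114P18Rik and in that same Nfix sequence. The island over that Nfix start ended at 84775901 and covered only part of the 250 bases, and both motifs lay outside it. Neither motif was found before Nfia, Nfic or the outermost start of Nfix. The whole palindrome (in 0.0365% of start sequences) and the Gli sequence GACCACCCA (in 0.225%), searched on both strands, were found in none of the sequences shown. The Nfia sequence had 1 CG dinucleotide, against a median of 6 over the table, whereas that of Nfic had 19 and the outermost Nfix start 11. The Nfix start with both motifs had 4, and the Nfix starts not shown had 1, as in Nfia, and 7. Of the Nfix starts not shown, the one with 1 CG (chr8:84772876-84773125) also held 1 single NFI sequence. The start of the lncRNA Gm42305, under a distal island of Nfib and not shown either, held 1 as well. A match is a description of letters and not evidence of binding, and letters absent from these 250 bases say nothing about the factor.

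All 4 genes had Brg1 islands, where 16.9% of protein-coding genes had any and 1.29% had at least 3, the lowest number in the family. Nfia had 18 islands, Nfix 7, Nfic 4 and Nfib 3. Every island but 1 lay wholly inside its gene, and the exception crossed the higher-coordinate end of Nfib. Longer genes have more room for islands, so each gene is also set beside genes of 0.5 to 2 times its length. An island was found in 51.4% of genes of about the length of Nfia, 38.8% for Nfib, 27.9% for Nfix and 17.7% for Nfic. The family was proposed for study with its islands already known, so these shares describe the genes and test nothing.

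**Figure D1:**
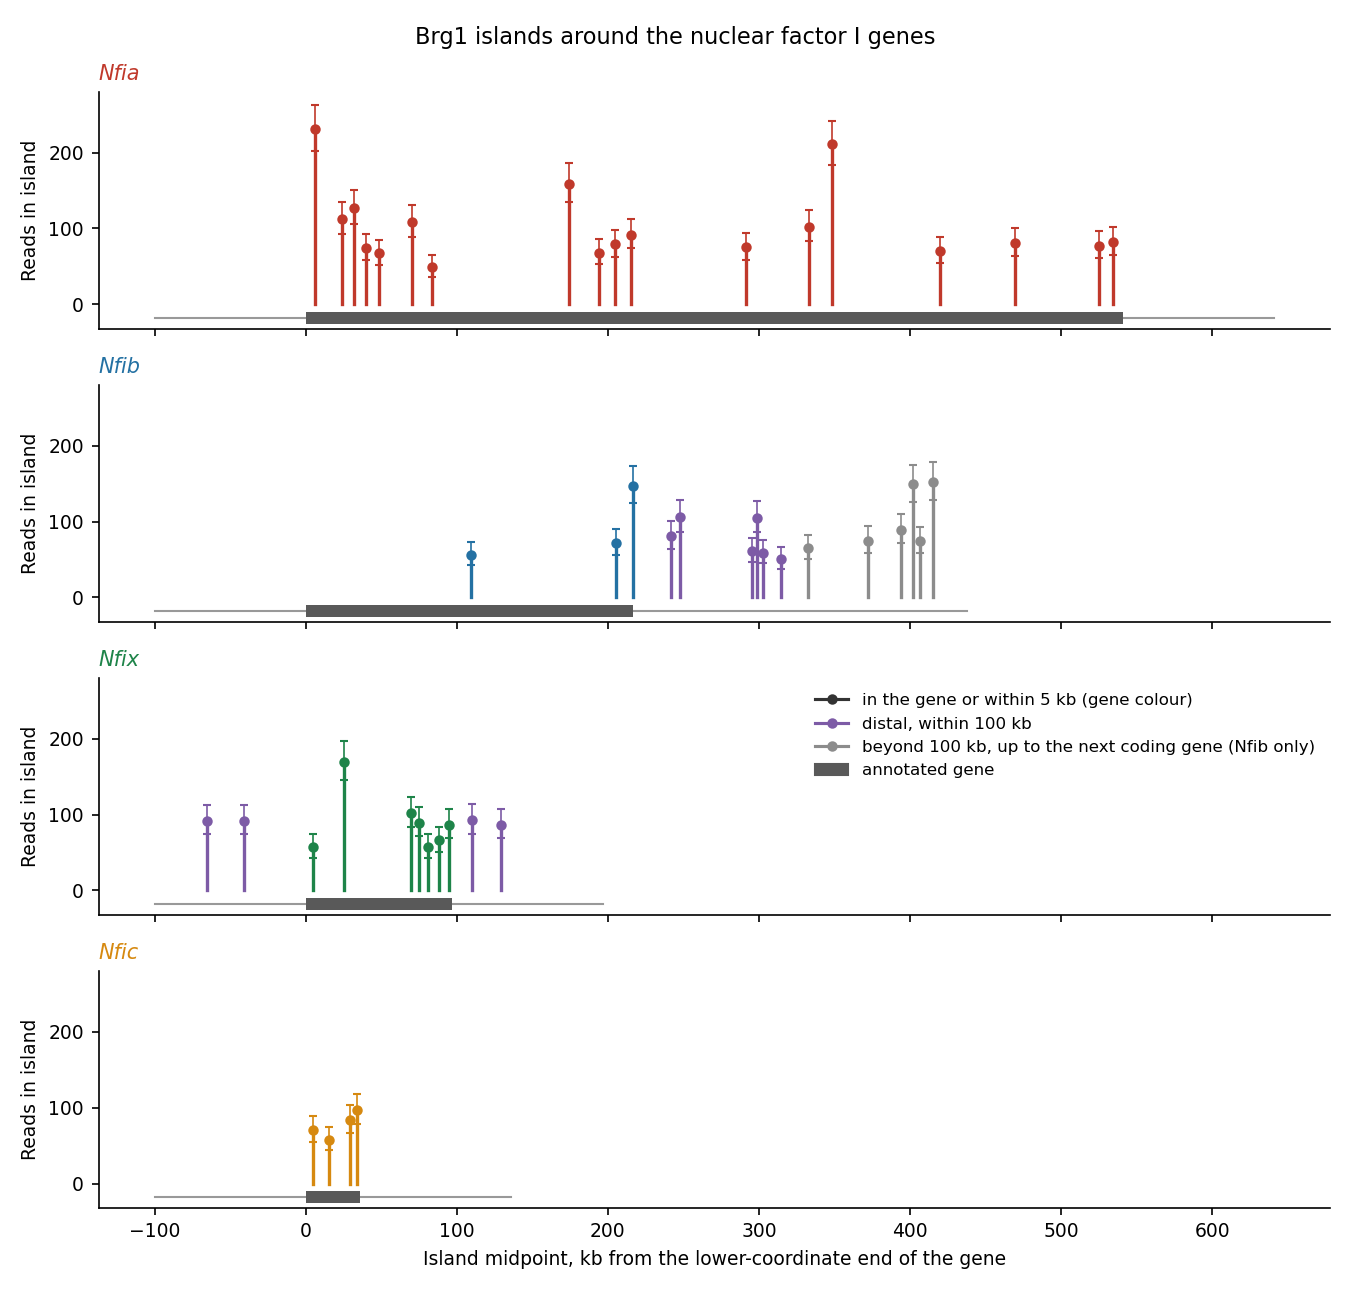
Reads in each Brg1 island (vertical axis, dot with exact Poisson 95% interval for counting error) against the island midpoint in kb from the lower-coordinate end of each nuclear factor I gene, on the same scales in all 4 panels. The grey bar is the annotated gene; the 18 islands of Nfia run the length of the gene, whereas 12 islands lie beyond the higher-coordinate end of Nfib.

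Nfia (gene ID 18027) lies on the plus strand at chr4:97578066-98118876 and is 541 kb long. Its 18 islands held 1864 reads (exact Poisson 95% interval 1780 to 1951), which was 0.395% of the reads in the list, and covered 60.8 kb. Only Gse1, with 22, had more islands among protein-coding genes, although Nfia ranked 3rd when only the islands in the upper quartile of reads were counted, with 8. Gse1 was also the only 1 of 600 other genes of about the length of Nfia with as many, and the median of those genes was 1. By covered length Nfia ranked behind 3 genes that share 80.6 kb at Sfi1, with Gse1 next at 58.4 kb.

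The island with the most reads in Nfia lay over the listed start of the gene. It spanned 7200 bp (chr4:97580310-97587509) and held 231 reads (202 to 263), which placed it 43rd in the list. The island did not reach the lower-coordinate end of the annotated gene, at 97578066. The start listed for Nfia, at 97581943, and that of E130114P18Rik both fell within this island. Next along the gene came islands of 112, 127, 74, 67, 108 and 49 reads, with midpoints 19.97, 28.4, 36.3, 44.7, 66.6 and 80.0 kb downstream of that start. Together with the island at the start, 7 of the 18 islands and 41.2% of the reads lay in the first 20% of the gene. The island of 108 reads was dense for its size, at 9 reads per 200 bp over 2400 bp, and stood at percentile 99.3 among the 2231 islands within 400 bp of its width.

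After 87 kb without an island, the longest gap in the gene, 4 more islands followed between 171 and 211 kb from the start. The widest of them (chr4:97749510-97755709) held 159 reads (135 to 186) over 6200 bp and overlapped the lncRNA Gm38709. For its width it had few reads, at percentile 15.2 among 67 islands of like width. The other 3 held 68, 79 and 92 reads, and the one of 68 also overlapped Gm38709. In the middle 20% of the gene there was 1 island, of 75 reads (chr4:97868110-97870509), and it covered the start of the lncRNA Gm19417 shown above. The 20% after that had islands of 102, 211 and 70 reads. The one of 211 reads (183 to 241; chr4:97922910-97930109) was 7200 bp wide, as wide as the island at the start, with a midpoint 345 kb downstream of it. Its neighbour of 102 reads, over 2200 bp, was at percentile 99.5 among the 2357 islands of like width. The last 20% held islands of 81, 77 and 82 reads, the last with its midpoint 6.17 kb before the end of the annotated gene.

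Nfia thus carried wide islands away from its start as well as at it. Of its 18 islands 4 were at least 4 kb wide (22.2%), against 518 of 5727 in the list (9.04%). Other genes with many islands had as many or more of this width: Lrba 5 of 15, Map3k1 5 of 8, and Tcf4 and Cacna2d1 4 of 10 each. There were 48 islands of at least 7 kb, and Nfia and Map3k1, a kinase gene, were the genes with 2 of them. Width and reads go together, and for their width the islands of Nfia were ordinary, with a median percentile of 52.1 among islands of like width. Their median was 81.5 reads, and 15 of the 18 were above the list's median of 68. Neither flank had a distal island: none was found beyond the gene within 100 kb on either side, where 37.9% of protein-coding genes had at least 1.

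The islands of Nfia lay closer together than those of the list, but none closer than a few kb. The smallest gap between neighbours was 4.6 kb and the median 12.4 kb, with 11 of 17 gaps under 20 kb, whereas over the list 17.5% of gaps were under 20 kb and the median was 137 kb. With so many islands in a gene of this length, gaps mostly shorter than the list median follow from their number. The contrast with the list is therefore no separate trait. The other genes with at least 10 islands, Gse1, Lrba, Cacna2d1 and Tcf4, each had a smallest gap of 0.8 kb, and their median gaps were 9.8, 6.4, 26 and 8.2 kb. Joining islands less than 5 kb apart left Nfia with 17, ahead of Gse1 with 16, Lrba with 9, Cacna2d1 with 8 and Tcf4 with 6. Which of Nfia and Gse1 has more islands therefore depends on how near islands are counted.

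**Figure D2:**
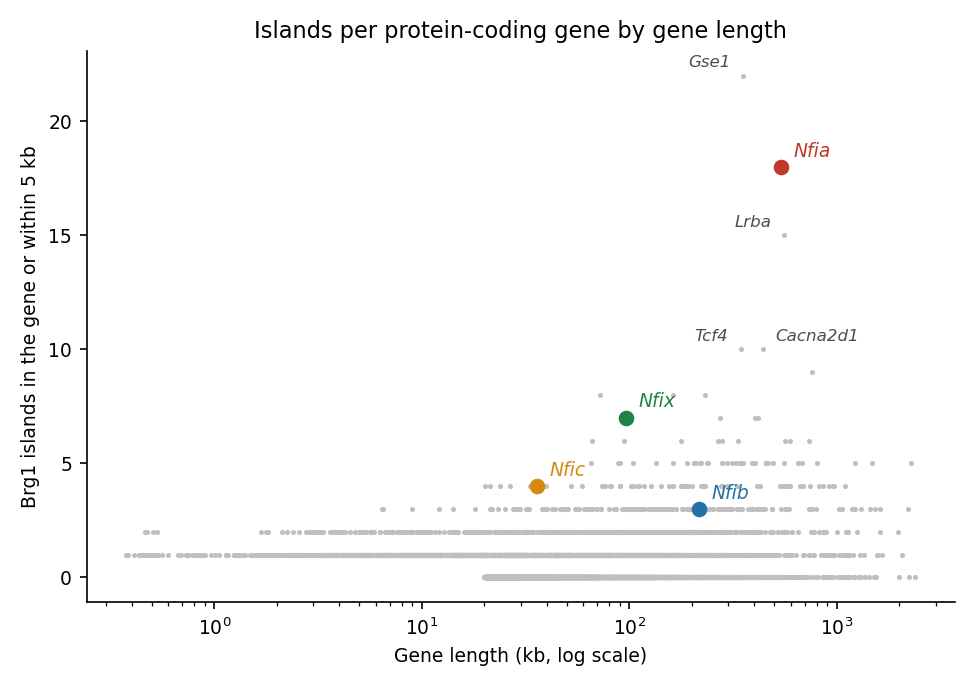
Brg1 islands in the gene or within 5 kb (vertical axis) against gene length in kb (log scale) for protein-coding genes (grey dots), with the nuclear factor I genes in colour and the other genes with at least 10 islands named. Genes under 20 kb without an island are not drawn; Nfia, with 18, is exceeded by Gse1, with 22.

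Per length, Nfia was not the highest of the family. Counting the gene with 5 kb on each side, Nfic had 8.75 islands per 100 kb (2.38 to 22.4), Nfix 6.57 (2.64 to 13.5), Nfia 3.27 (1.94 to 5.16) and Nfib 1.32 (0.273 to 3.87). These are exact Poisson 95% intervals on the number of islands, and they overlap for every pair of the 4 genes. With only the islands in the upper quartile of reads Nfix came first, at 3.75, before Nfic at 2.19, Nfia at 1.45 and Nfib at 0.441. By number, the intervals were 10.7 to 28.4 for Nfia, 2.81 to 14.4 for Nfix, 1.09 to 10.2 for Nfic and 0.619 to 8.77 for Nfib. The family was proposed with these numbers known and they ignore gene length, so whether the intervals overlap tests nothing. Nor do intervals on islands called in 1 library measure the spread between tumours. Among the 2427 genes of at least 100 kb Nfia ranked 10th by islands per 100 kb and Nfib 162nd. In these genes 39.9% had an island, and the highest rate was 6.06, for Gse1.

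**Figure D3:**
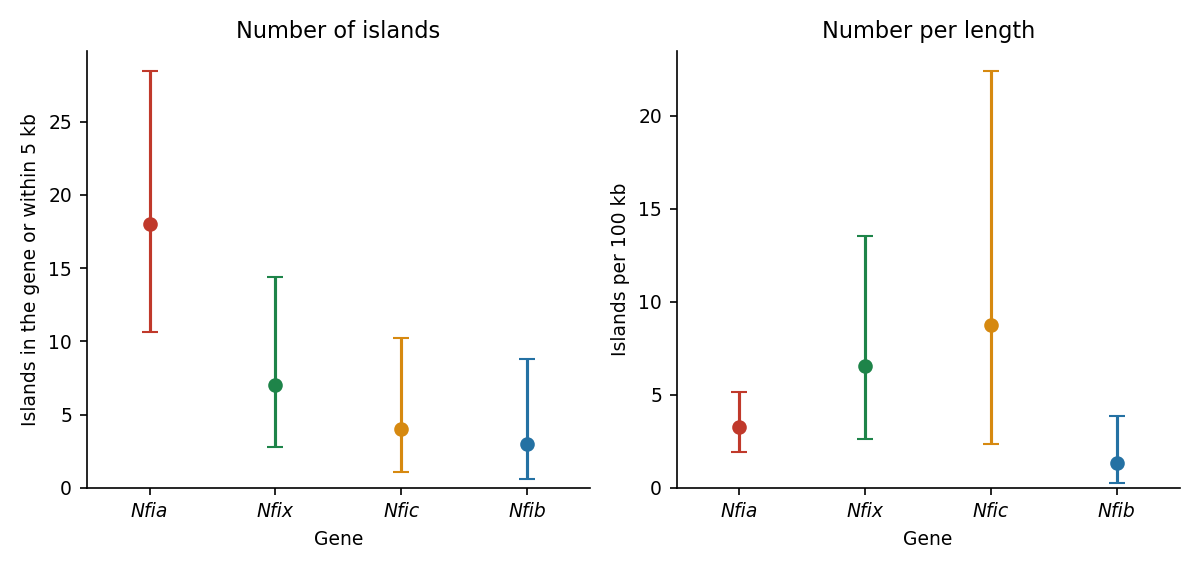
Number of Brg1 islands in the gene or within 5 kb (left) and islands per 100 kb of that span (right) for each nuclear factor I gene. Bars are exact Poisson 95% intervals on the number of islands and do not measure the spread between tumours. With all islands Nfia is highest by number, at 18, and Nfic by length, at 8.75 per 100 kb; with the upper quartile of reads alone Nfix is highest by length, at 3.75.

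Of 600 genes within 0.5 to 2 times the length of Nfia, the 5 with the nearest rate were Tcf4, a bHLH factor gene, with 10 islands (2.82 per 100 kb), Lrba with 15 (2.64), Ralgapa2 with 7 (2.48), the calcium channel subunit gene Cacna2d1 with 10 (2.22) and Tmcc3 with 6 (2.07). The likeness is the difference in islands per 100 kb within this 1 library, and all 5 rates lay below the 3.27 of Nfia.

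Nfix (gene ID 18032), on the minus strand at chr8:84704712-84801238, was 96.5 kb long and had 7 islands with 628 reads (580 to 679). Only 2 of 4060 other genes of about its length had as many. In the direction of transcription the islands held 87, 66, 57, 89, 102, 170 and 57 reads, and the first 5 of these had midpoints between 1.94 and 26.8 kb from the higher-coordinate end. The island of 89 reads (chr8:84778502-84781101) covered the outermost of 4 listed starts. That of 102 reads (83.2 to 124; chr8:84772902-84775901) covered the next pair of starts, and the remaining start lay 27 bp outside it. The islands of 87, 66 and 57 reads lay upstream of all 4 listed starts yet inside the annotated gene. The island with the most reads, 170 (145 to 198; chr8:84726702-84733101), lay far inside, was 6400 bp wide and touched the lncRNA G430095P16Rik. For its width it had few reads, at percentile 19.8 among 44 islands of like width. Joining islands less than 5 kb apart left 4 of the 7.

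Nfic (gene ID 18029), on the minus strand at chr10:81396191-81431919, is the shortest member at 35.7 kb and had 4 islands with 310 reads (276 to 347). In 7131 other genes of about its length the median was 0 islands, the highest number 6, and 11 genes had at least 4. In the direction of transcription the islands held 97, 84, 58 and 71 reads. The first pair flanked the listed start at 81427173: the island of 84 reads (chr10:81424256-81427055) ended 118 bp on the downstream side, and that of 97 (chr10:81428056-81431655) began 883 bp on the upstream side, within the annotated gene. The gap of 1 kb between them held the sequence of high CG number shown above. The island of 58 reads overlapped the lncRNA Gm16104, and that of 71 reads lay near the far end of the gene at a density of 8.88 reads per 200 bp, against a list median of 6.27. Islands covered 21.0% of Nfic with its flanks, 19.3% of Nfix, 11.0% of Nfia and 3.27% of Nfib. No distal island was found within 100 kb of Nfic.

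Nfib (gene ID 18028) lies at chr4:82290173-82506751, 15.1 Mb from Nfia on the same chromosome, and is 217 kb long. It had 3 islands with 275 reads (243 to 309). No start or strand was listed for Nfib, so positions along it are given from its coordinate ends. The island across the higher-coordinate end (chr4:82504697-82508496) held 147 reads (124 to 173), at percentile 97.02 among 638 islands of like width, and covered the start of the lncRNA Gm11266. Next to it, 8.2 kb further inside, lay an island of 72 reads (chr4:82494497-82496496), and near the middle of the gene one of 56 (chr4:82399097-82400696). The first 40% of the gene from its lower-coordinate end had none. Of 1891 other genes of about its length 136 had at least 3 islands.

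Beyond its higher-coordinate end Nfib had further islands, whose number depended on the window and on joining: 2 within 50 kb, and 3 within 100 kb when islands less than 5 kb apart were joined. As listed, 6 distal islands lay within 100 kb, of 81, 106, 61, 105, 59 and 51 reads, each with Nfib as its nearest protein-coding gene. At least 6 distal islands were found for 79 protein-coding genes (0.365%). The nearest was 23.7 kb and the farthest 97.5 kb from the gene. The island of 106 reads (86.8 to 128; chr4:82536497-82539896) had the most. Gm11266 was overlapped by the first pair and the lncRNA Gm11267 by the next pair, and the island of 51 reads covered the start of the lncRNA Gm42305. A further 6 islands lay beyond 100 kb, of 65, 75, 89, 149, 74 and 152 reads. The one of 149 reads (chr4:82689897-82694696, 4800 bp) overlapped the lncRNA Gm11269, and the farthest, of 152 reads (129 to 178; chr4:82702497-82707696, 5200 bp), overlapped no gene and lay 196 kb from Nfib.

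These 12 islands lay, between 23.7 and 196 kb from Nfib, in the 292 kb that separate it from the next protein-coding gene, Zdhhc21, which encodes a palmitoyltransferase. This interval was chosen after its values were seen. Of 19442 intervals between neighbouring protein-coding genes it tied with 2 others for the most islands, those between Map3k1 and Ankrd55 (470 kb) and between Usp25 and Cxadr (1184 kb). Among 1462 intervals of 0.5 to 2 times its length the median was 0 islands. The 12 islands held 1067 reads, with a median of 78, and 6 of them overlapped no annotated gene. With the gene itself, Nfib and this interval came to 15 islands and 1342 reads, beside 18 and 1864 for Nfia alone. Joining islands less than 5 kb apart left 6 of the 12. On the outer sides of Nfia the intervals to the next protein-coding gene, of 791 and 236 kb, each held 1 island.

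**Figure D4:**
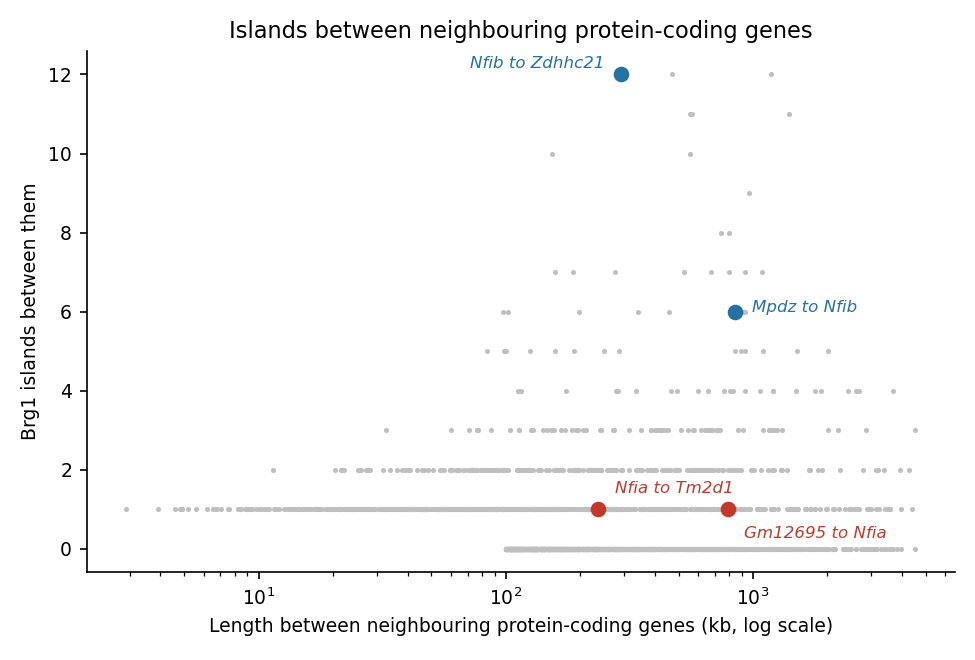
Brg1 islands lying wholly between neighbouring protein-coding genes (vertical axis) against the length between them in kb (log scale), with the intervals beside Nfib in blue and those beside Nfia in red. Intervals under 100 kb without an island are not drawn; the interval from Nfib to Zdhhc21 holds 12 islands and those beside Nfia hold 1 each.

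Nfix had 4 distal islands within 100 kb, of 92, 92, 93 and 87 reads, and each overlapped another protein-coding gene. From the lower coordinate these were Cacna1a, a calcium channel gene, the immediate early gene Ier2, Dand5, which encodes a secreted antagonist, and Gadd45gip1. At least 4 distal islands were found for 551 protein-coding genes (2.55%). The distal islands of Nfib and of Nfix thus differed in surroundings: all 6 of the former had Nfib as nearest coding gene, and none of the latter had Nfix.

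The islands of the family also met annotated non-coding genes. Inside or across Nfia lie the lncRNAs E130114P18Rik, Gm38709, Gm19417, Gm40208 and Gm34218, and islands overlapped the first 3 of these. Gm40208 and Gm34218 had none. In Nfib an island overlapped 2310067E19Rik, in Nfic Gm16104 but neither Gm51811 nor the microRNA gene Mir1191b, and in Nfix G430095P16Rik. Lyl1, a bHLH factor gene whose annotation overlaps that of Nfix at the edge, had no island in it. The annotation gave neither exons nor introns here, so positions within a gene are given without them.

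Genes linked to NFI proteins in granule neurons and glia were examined from a list of 23. Islands in the gene or within 5 kb were found for 7 of them (30.4%, Wilson 95% interval 15.6 to 50.9), where 16.9% of protein-coding genes had one. The median of the list and of all genes was 0 islands. Among genes of granule neuron maturation 2 of 7 had an island: Ephb1, an ephrin receptor, with 87 reads (69.7 to 107) inside the gene, and the ETS factor gene Etv1 with 85 reads (67.9 to 105) over a start. Gabra6, Cntn2, Cdh2, Grin2c and Wnt7a had none. Of genes expressed in glia, 3 of 7 had one: Gfap, the astrocyte filament, had islands of 49 and 47 reads, Mmd2 one of 46 and Zcchc24 one of 63, all under the list median of 68. Fabp7, Slc1a3, Aqp4 and Apcdd1 had none.

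Progenitor genes known to be held down by NFI proteins had islands in 2 of 4, where 16.9% of protein-coding genes had one. Ezh2, the Polycomb methyltransferase, had one of 91 reads (73.3 to 112) over its start (chr6:47593602-47596401), and Bbx one of 94 (76.0 to 115) over an end of the gene (chr16:50430088-50433887). Hes1 and Insc had none. None of 5 partners and regulators (Sox9, Nfatc4, Rest, Ski and Olig2) had an island. For 0 of 5 genes the Wilson 95% upper bound was 43.4%, and a rougher limit that allows 3 counts was 60%. Both lay above the 16.9% of all protein-coding genes, so the few genes limit this comparison. None of these lists was matched for gene length.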

How the data were processed

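Brg1 binding was profiled by ChIP-seq in 1 ChIP library of mouse medulloblastoma. Per the submitters' processing notes, SICER 1.1, Picard 1.127 and Bowtie 0.12.7 were used with mm10 and mm9, with no step attached to either build. How SICER was set, and whether it was given the input as a control, is not given in the sources used here. Each of the 5727 deposited islands has a whole number and no column is named. These numbers were taken as counts of reads per island from their values, as made by the authors and not normalized. Coordinates were read as 0-based with an inclusive end, because widths are then whole multiples of 200 bp in all but 3 islands, and are printed 1-based. As deposited, 28.3% of islands lay over an annotated start sequence of GRCm38.p6, and 4.49% and 4.23% did when moved by 50 kb either way, so the coordinates were used as mm10.

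Islands were assigned to a gene if any base lay in it or within 5 kb, with Python 3.11.15, numpy 2.4.6 and scipy 1.17.1, and the counting code was tested on simulated intervals. Gene extents, strand and start sequences came from RefSeq. Reads have exact Poisson and shares Wilson 95% intervals. No chance test was made. The members, gene lists and intervals were chosen with earlier results of these data known. The genes named are the members, genes of the NFI-related and marker lists, genes nearest to or overlapped by the islands, the 5 most like Nfia and genes with the most islands; genes sharing ranks with members by covered length, width or interval were named after their values were seen. Alternatives were other windows, stronger islands, joined islands and midpoints. No protein sequence was used here.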

Additional observations from a re-analysis of the deposited data

How the results depend on the processing

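With 1 library, what limits these values is the caller's cut-off and how near islands are told apart, and depth is unknown. With islands at or above the median count, Nfix had 4 islands, Nfib 3 distal ones, and 9.66% of genes had an island; Nfia kept 16 and ranked 1st. With the upper quartile, Nfia had 8 and ranked 3rd, Nfib had 1, Nfic 1, Nfix 4 and Nfib 2 distal ones, and the share of genes was 5.21%. With islands closer than 5 kb joined, Nfia had 17, Nfix 4 and Nfib 3 distal ones. The share was 14.7% for the gene alone and 18.9% with a window of 10 kb, and no member's number changed with either or with midpoints. A distal window of 50 kb gave Nfib 2, and one of 200 kb gave Nfib 14, Nfix 8 and Nfic 1. Of 100 alternative values 69 stayed within 1.5 times the reported value (or, for the share, within its interval). The input library had no values among the data used here, so the ChIP library was not compared with it.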

Other observations

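The interval below Nfib, 847 kb down to Mpdz, held 6 islands and 776 reads. Of these, 469 reads (exact Poisson 95% interval 428 to 513) lay in 1 island of 15800 bp (chr4:81565897-81581696), 708 kb from Nfib, which overlapped no annotated gene and ranked 18th in the list by reads. The other 5 held 81, 73, 44, 57 and 52 reads. The single islands outside Nfia lay 539 kb below it, with 63 reads, and 202 kb above it, with 100 reads.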
